A study of Mus musculus with 9 samples.

Results

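The transcripts of 33 genes of the extracellular matrix and its remodelling were described in mouse liver, chosen by gene symbol from the 55253 symbols of the deposited table. They were 13 collagen chains, 5 matrix glycoproteins, 4 proteoglycans, 2 elastic fibre genes, 3 cross-linking enzymes, 2 matrix metalloproteinases, 3 metalloproteinase inhibitors and the ligand gene Tgfb1. All 33 had reads in every library and passed the filter on low values. RNA was measured by 3′ mRNA sequencing in livers of male C57Bl/6J mice. The 5 mice of the DUAL group were given WD and sweetened water with 10% alcohol for 23 weeks, from an age of 10 weeks. The 4 control mice had chow and plain tap water. Diet, alcohol and sweetening came together in the DUAL group, so their separate effects cannot be told apart.

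The matrix of the liver holds little fibrous protein in health, and in chronic injury it gains fibrillar collagen, which is what fibrosis means in histology. Hepatic stellate cells, which store vitamin A when at rest, are the main source of that collagen once they become myofibroblasts, and portal fibroblasts add to it around the bile ducts. Collagen chains are hydroxylated and glycosylated in the cell, trimmed outside it, laid down with small proteoglycans that set fibril width, cross-linked by lysyl oxidases and degraded by metalloproteinases, which the TIMP proteins inhibit. TGF-beta is the best known inducer of these genes in stellate cells.

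Levels are in CPM, read counts scaled to library size, with the authors' TMM adjustment. Since each transcript is read from its 3′ end, CPM can be set side by side between genes without a correction for length. The libraries held between 3635860 reads (DUAL 1) and 6643645 reads (DUAL 4), so that 1 read was worth 0.152 to 0.27 CPM. Differences are DUAL minus control on the log2(CPM + 1) scale, which understates the change of genes with low levels. They are given with their standard error (SE) or 95% interval and an adjusted p from limma-trend over all 14759 genes tested.

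Several measurements of the 9 libraries touch every result below. All 9 libraries came from mice labelled male, and all had Xist, the RNA of the inactive X chromosome of female cells, at 92.9 to 132 CPM. Transcripts of the Y-linked gene Ddx3y were present as well, at 28.3 to 46.2 CPM, as were those of Eif2s3y at 11.5 to 18.0 CPM. Genes of foetal or cultured mesenchymal cells, a list of 15 drawn up after the values were seen, summed to 4781 to 5582 CPM in DUAL and 4599 to 5611 CPM in control libraries. Among them Hmga2, a chromatin protein of embryonic cells, stood at 190 to 239 CPM and Inhba, an activin subunit, at 677 to 812 CPM, while Lin28b was at 0. Of the 14 tested genes of that list, 0 passed the test in either direction with limma-trend, edgeR or DESeq2, and 0 had an unadjusted p under 0.05. Of 30 hepatocyte markers 25 had a lower DUAL mean on the log2 scale, 11 at an unadjusted p under 0.05, and 2 fell by limma-trend, Alb (18876 ± 3597 CPM, SD, n = 5, in DUAL and 33497 ± 6566 CPM, SD, n = 4, in control livers) and Apoa1 (3436 ± 580 and 5019 ± 382 CPM). With DESeq2 6 fell, adding Ahsg, Ass1, Cps1 and Serpinc1. Of all tested genes 4.77% were lower at an unadjusted p under 0.05 (limma-trend), 0.678% fell by limma-trend and 1.19% by DESeq2. Scaling the libraries on the hepatocyte markers moved the median difference of all genes to 0.21. Under it the differences of all 33 members were positive, those given below as negative included. How many of all tested genes were positive under it was not counted. Because Xist and the mesenchymal genes were present in all 9 libraries, no value could be given without them, and their part in the results was not tested. Abundant matrix transcripts such as Col1a1 kept nearly fixed ratios to mesenchymal genes such as Inhba and Hmga2 in all 9 libraries. The ratio of Xist to Col1a1 varied about as much as Col1a1 itself. Ratios among other abundant genes were not compared. Whether the Xist, mesenchymal and abundant matrix transcripts came from the liver tissue of these mice was not tested, so their levels describe the libraries and not necessarily the liver.

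Of the 33 matrix genes, 3 rose in DUAL livers and 0 fell. Those that rose were Dcn, Lum and Col14a1, the genes of 2 small leucine-rich proteoglycans and of a collagen that sits on the surface of fibrils. Among all tested genes 1.61% rose and 0.678% fell. With edgeR the same 3 members rose (1.5% of all genes higher, 0.63% lower), and with DESeq2 5 rose, adding Col15a1 and Eln (2.51% of all genes higher, 1.19% lower), and 0 fell with either tool. At an unadjusted p under 0.05 (limma-trend) 6 members were higher and 0 lower, against 7.41% and 4.77% of all tested genes. The count of 3 became 1, Dcn, without DUAL 5, control 1 or control 3, and 0 with the replicate number as a block. In 5 members every DUAL library lay above every control library, which held for 3.34% of all tested genes. Besides the 3 named these were Col15a1 and Eln. For 0 members did every DUAL library lie below every control library, against 2% of all tested genes. The median difference of the 33 members was 0.01, beside -0.00077 over all tested genes. Positive differences were found for 18 of 33 members and for 7360 of 14759 tested genes. With scaling on hepatocyte markers 33 of 33 were positive, but that scaling moved the median of all tested genes to 0.21, beside 0.24 for the members. The classical fibrosis transcripts Col1a1, Col1a2, Col3a1, Timp1 and Tgfb1 did not pass the test.

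**Figure D1:**
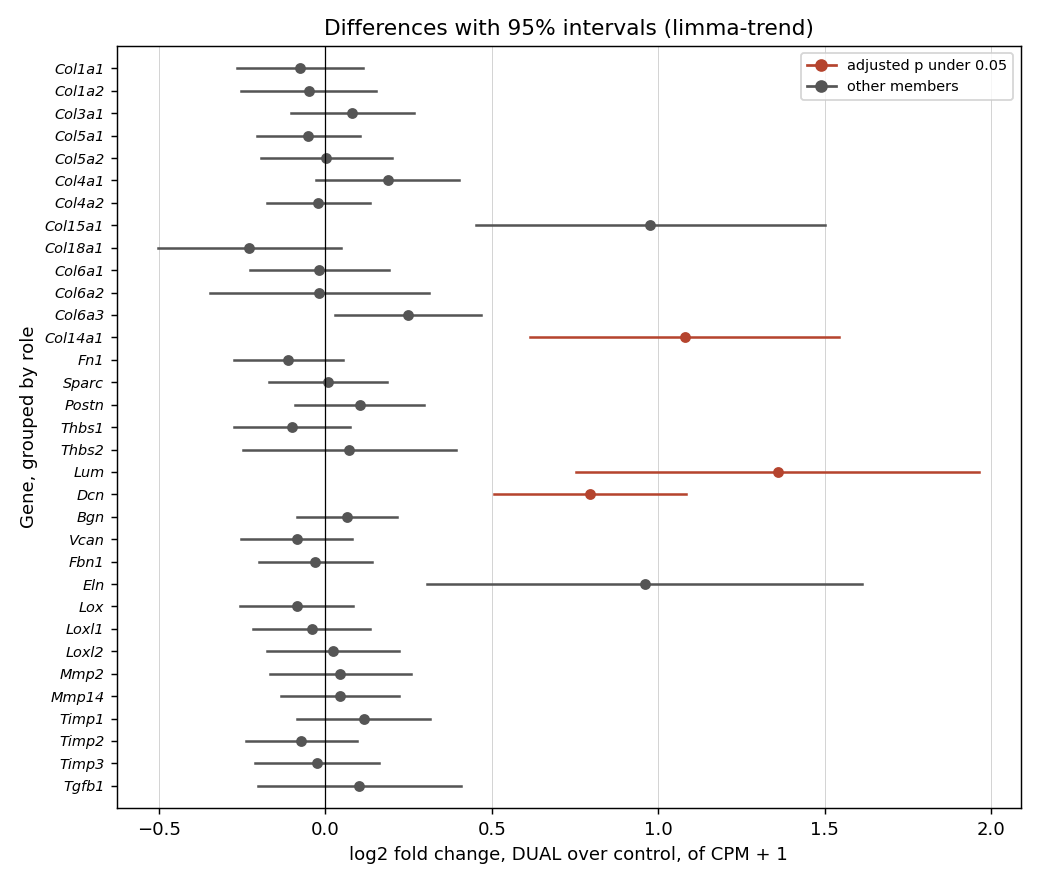
Difference of each of the 33 members between DUAL (n = 5) and control (n = 4) on the log2(CPM + 1) scale, with its 95% interval, grouped by role. Dcn (0.79), Lum (1.36) and Col14a1 (1.08) are the members past the threshold. Col15a1 (0.98) and Eln (0.96) lie further from 0 than Dcn but are not past it, and the other 28 differences fall between -0.23 and 0.25.

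Dcn codes for decorin, a proteoglycan that binds collagen fibrils and TGF-beta. Its level was 198, 133, 161, 134 and 188 CPM in DUAL 1 to 5, and 82.1, 108, 79.6 and 102 CPM in control 1 to 4. The lowest DUAL library stood above the highest control library. The means were 163 ± 29.9 CPM (SD, n = 5) and 93.0 ± 14.3 CPM (SD, n = 4), a ratio of 1.75, with a log2 difference of 0.79 (SE 0.13, adjusted p = 0.00588, limma-trend). Between 458 and 940 reads lay behind each value, so counting error was small beside the spread between mice.

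Lum codes for lumican, a relative of decorin that also binds fibrils and lies next to Dcn on the chromosome, with no coding gene between them in RefSeq. It was measured at 14.3, 6.11, 5.63, 6.36 and 13.2 CPM in DUAL 1 to 5. The control libraries gave 2.14, 3.99, 1.91 and 3.03 CPM in the same order of number. DUAL 1 and DUAL 5 stood well above the other DUAL libraries, which were themselves above all controls. The group means were 9.12 ± 4.25 CPM (SD, n = 5) and 2.77 ± 0.947 CPM (SD, n = 4), a ratio of 3.29, with a log2 difference of 1.36 (SE 0.28, adjusted p = 0.0208, limma-trend). Between 11 and 66 reads stood behind a value, and the call was lost without DUAL 5 (adjusted p = 0.0616), control 1 (0.0676) or control 3 (0.0647) and with no filter on low values (0.051). The ratio of Dcn to Lum was 13.8 to 28.6 in DUAL libraries and 27.2 to 41.6 in control libraries.

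Bgn codes for biglycan, the closest relative of decorin, and stood at 333 to 385 CPM in DUAL and 322 to 361 CPM in control libraries (difference 0.07, 95% interval -0.09 to 0.22). Vcan, the large chondroitin sulphate proteoglycan versican, had a mean of 81.0 ± 5.61 CPM (SD, n = 5) in DUAL and 86.0 ± 5.31 CPM (SD, n = 4) in control livers. Neither passed the test, and with the authors' scaling the intervals of both excluded a difference of 0.5 in either direction. With scaling on hepatocyte markers the differences were 0.30 (SE 0.17) for Bgn and 0.14 (SE 0.17) for Vcan. The 4 proteoglycans summed to 552 to 659 CPM in DUAL and 493 to 553 CPM in control libraries.

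Col14a1, a collagen with interrupted triple helices that decorates the surface of type I fibrils, was the only collagen among the 13 chains that passed the test in limma-trend. Its level was 36.7, 22.2, 20.3, 19.8 and 29.2 CPM in DUAL 1 to 5. In control 1 to 4 it was 8.40, 14.3, 8.52 and 15.5 CPM. The groups did not overlap, and the lowest DUAL library, DUAL 4, stood nearest to control 4. The means were 25.6 ± 7.22 CPM (SD, n = 5) and 11.7 ± 3.76 CPM (SD, n = 4), a ratio of 2.19, with a log2 difference of 1.08 (SE 0.21, adjusted p = 0.0171, limma-trend). The call was lost without DUAL 5 (adjusted p = 0.0567), control 1 (0.0593) or control 3 (0.054).

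Type VI collagen forms beaded filaments around cells from 3 chains. Col6a1 averaged 53.6 ± 6.49 CPM (SD, n = 5) in DUAL and 54.1 ± 3.70 CPM (SD, n = 4) in control livers, a difference of -0.02 (95% interval -0.23 to 0.19) that turned to 0.21 with scaling on hepatocyte markers and to 0.0367 with columns rescaled to the same total. Col6a2 averaged 18.0 ± 2.86 against 18.3 ± 3.75 CPM. Col6a3 was higher in the DUAL mean, 54.9 ± 7.77 against 45.8 ± 2.56 CPM, a difference of 0.25 with a 95% interval of 0.03 to 0.47, and this did not pass the test (adjusted p = 0.313, limma-trend). The libraries of Col6a3 overlapped, since DUAL 4 (47.6 CPM) lay below control 1 (49.4 CPM).

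Col15a1 and Col18a1 code for the multiplexins, collagens of basement membrane zones. Col15a1 was measured at 5.93, 3.06, 3.94, 3.18 and 4.00 CPM in DUAL 1 to 5, and at 1.65, 2.73, 1.04 and 0.947 CPM in control 1 to 4. All DUAL libraries were above all controls, by little between DUAL 2 and control 2, and 5 to 22 reads stood behind a value. The difference of 0.98 (SE 0.24) did not pass the test in limma-trend (adjusted p = 0.0557) or edgeR (adjusted p = 0.0853), but did in DESeq2 (adjusted p = 0.0251). In limma-trend it passed without control 2 (adjusted p = 0.0237), with columns rescaled to the same total (0.0346) and with scaling on hepatocyte markers (0.0061). Col18a1 was far more abundant, with 229 ± 38.9 CPM (SD, n = 5) against 266 ± 35.9 CPM (SD, n = 4), a difference of -0.23 (95% interval -0.50 to 0.05). It had the widest range of the 28 members whose groups overlapped, with the highest library 1.86 times the lowest.

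Type IV collagen, the sheet-forming collagen of basement membranes, is assembled from products of Col4a1 and Col4a2, which lie head to head. Col4a1 was measured at 179, 209, 165, 169 and 175 CPM in DUAL 1 to 5, and at 163, 128, 168 and 174 CPM in control 1 to 4. The groups overlapped, control 2 was the lowest library, and the difference of 0.19 (95% interval -0.03 to 0.40) did not pass the test (adjusted p = 0.484, limma-trend). Col4a2 had the lowest coefficient of variation of the 33 members, 83.0 to 97.2 CPM over the 9 libraries. The ratio of Col4a1 to Col4a2 ran from 1.88 to 2.16 in DUAL and from 1.42 to 2.02 in control libraries. In RefSeq the spans of the 2 genes overlap where they start, while the libraries were read from the 3′ ends of transcripts. The strand setting of the counting is not given, and whether the overlap touched either value was not tested.

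Eln codes for elastin and Fbn1 for fibrillin, the core and the scaffold of elastic fibres. Eln was measured at 7.28, 2.14, 2.06, 1.97 and 4.20 CPM in DUAL 1 to 5. Control 1 to 4 gave 1.15, 1.47, 1.22 and 0.758 CPM. All DUAL libraries were above all controls, with DUAL 1 and DUAL 5 far above the other DUAL libraries, and 4 to 27 reads stood behind a value. The difference of 0.96 (SE 0.30) did not pass the test in limma-trend (adjusted p = 0.148) or edgeR (adjusted p = 0.137), but did in DESeq2 (adjusted p = 0.0453). In limma-trend it passed with scaling on hepatocyte markers (adjusted p = 0.0196). Fbn1 had a mean of 68.4 ± 4.17 CPM (SD, n = 5) in DUAL and 69.9 ± 4.89 CPM (SD, n = 4) in control livers.

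**Figure D2:**
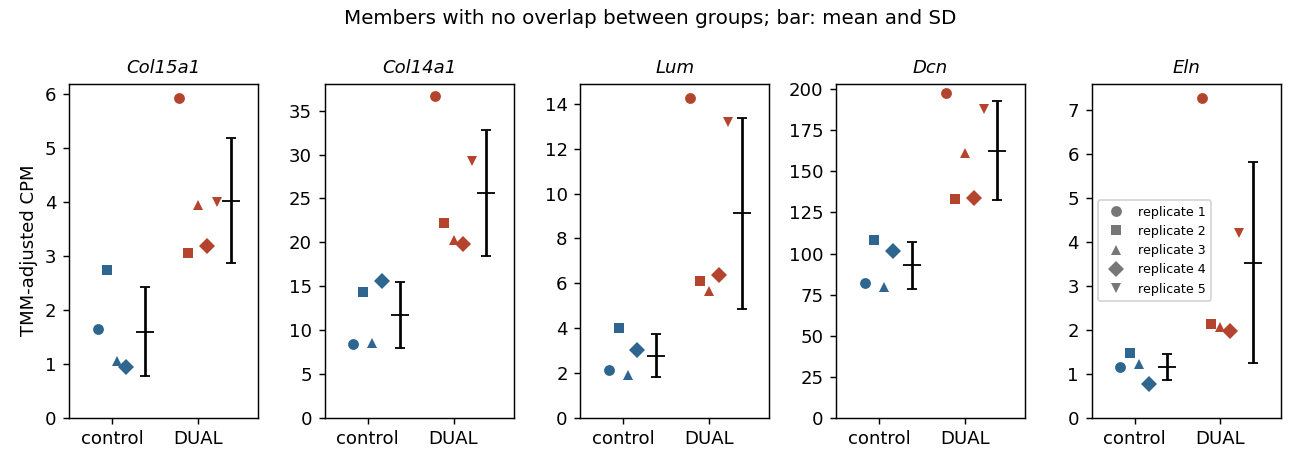
Level in CPM (linear axes from 0) of the 5 members whose groups did not overlap, in each DUAL (n = 5) and control (n = 4) library, with the mean and SD as a bar and a marker shape for each replicate number. In all 5 genes DUAL 1 is the highest library and DUAL 5 the next.

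The 5 members with separated groups, singled out after their values were seen, shared an order of libraries. DUAL 1 was the highest and DUAL 5 the next in all 5, and how many other genes have this order was not counted. The same 2 libraries had the highest summed level of the 15 macrophage markers, 1131 and 1133 CPM, against 686 to 846 CPM in the other DUAL libraries and 221 to 362 CPM in controls, and 13 of those 15 markers rose. The 6 with the smallest p were Gpnmb, Mmp12, Cd5l, C1qc, C1qa and Lyz2, with log2 differences of 3.35, 2.69, 2.53, 1.85, 1.72 and 1.13. They also had the highest summed level of the 15 stellate cell markers, 209 and 217 CPM, against 146.5 to 193 CPM in the other DUAL libraries and 118 to 175 CPM in controls, and 0 of 13 tested stellate markers passed the test in limma-trend or edgeR. At an unadjusted p under 0.05 there were 5 of them, all higher, and in DESeq2 2 rose, Cygb and Rgs5. Lrat, the enzyme that stores vitamin A, had a mean of 6.04 ± 2.12 CPM (SD, n = 5) in DUAL and 4.77 ± 1.65 CPM (SD, n = 4) in control livers. The median difference of the 13 tested stellate markers was 0.35, and 11 of them were positive. Over all tested genes 7360 of 14759 were positive. The most abundant stellate marker, Ecm1, went against most of its list, with means of 64.4 ± 8.43 and 66.6 ± 11.6 CPM. Portal fibroblast markers summed to 135 to 165 CPM in DUAL and 138 to 160 CPM in control libraries, 0 of 4 tested passed in limma-trend or edgeR (1 at an unadjusted p under 0.05, and 1 in DESeq2, Entpd2), and Msln and Gli1 had no reads in most libraries. The most abundant of them, Fbln2, had means of 116 ± 11.4 CPM (SD, n = 5) in DUAL and 118 ± 10.03 CPM (SD, n = 4) in control livers. Mesothelial and capsule markers summed to 3.48 to 8.61 CPM in DUAL and 2.95 to 7.91 CPM in control libraries, and 0 of 2 tested passed with any of the 3 tools (1 at an unadjusted p under 0.05). Of these Krt19, which stands on the list of cholangiocyte markers too, had means of 3.15 ± 1.37 and 3.11 ± 1.29 CPM. Sinusoidal endothelial markers summed to 252 to 324 CPM in DUAL and 208 to 278 CPM in control libraries. Of 14, 1 rose (Fcgr2b, 30.1 ± 3.83 against 19.0 ± 2.97 CPM) with each of the 3 tools, 6 were higher at an unadjusted p under 0.05, and their median difference was 0.32. For all these lists, the shares of all tested genes that rose were 1.61% by limma-trend, 1.5% by edgeR and 2.51% by DESeq2. At an unadjusted p under 0.05 (limma-trend) 7.41% of all tested genes were higher. By library, the endothelial sum was highest in DUAL 5 (324 CPM) and next in DUAL 3 (322 CPM), with DUAL 1 at 306 CPM. The portal fibroblast sum was highest in DUAL 2 (165 CPM), and the mesothelial sum in DUAL 5 (8.61 CPM), then DUAL 1 (8.085 CPM). DUAL 1 also had the fewest reads of the 9 libraries. Whether any of these moved the matrix genes was not tested, and in bulk tissue more cells of a type cannot be told apart from more RNA per cell. Without DUAL 1 the calls of Dcn, Lum and Col14a1 held, with log2 differences of 0.72 for Dcn and 1.19 for Lum. Without DUAL 5 the call of Dcn held (0.74), while Lum (1.21) and Col14a1 (1.02) did not pass the test.

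The fibrillar collagens were the most abundant group. To show what lies before their start sites, the 250 bases upstream of Col1a2 and Col3a1, 2 collagens that did not pass the test, are printed next to those of Col15a1, whose groups did not overlap. They come from RefSeq on build GRCm38.p6, plus strand, 5′ to 3′, at chr6:4505368-4505617 (Col1a2), chr1:45311288-45311537 (Col3a1) and chr4:47207762-47208011 (Col15a1), and capitals mark matches on either strand to the TATA box letters TATAAA, the CCAAT box letters CCAAT and the GC box letters GGGCGG.
Col1a2: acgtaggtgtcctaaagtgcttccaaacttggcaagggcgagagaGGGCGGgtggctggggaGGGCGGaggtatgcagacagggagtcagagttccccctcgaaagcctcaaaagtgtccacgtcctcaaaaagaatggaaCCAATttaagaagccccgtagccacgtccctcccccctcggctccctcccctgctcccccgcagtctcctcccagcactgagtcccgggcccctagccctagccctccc
Col3a1: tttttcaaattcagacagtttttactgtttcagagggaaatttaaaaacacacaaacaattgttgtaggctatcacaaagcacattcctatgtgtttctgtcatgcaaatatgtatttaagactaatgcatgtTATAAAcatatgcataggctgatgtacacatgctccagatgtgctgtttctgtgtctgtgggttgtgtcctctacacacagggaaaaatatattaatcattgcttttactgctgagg
Col15a1: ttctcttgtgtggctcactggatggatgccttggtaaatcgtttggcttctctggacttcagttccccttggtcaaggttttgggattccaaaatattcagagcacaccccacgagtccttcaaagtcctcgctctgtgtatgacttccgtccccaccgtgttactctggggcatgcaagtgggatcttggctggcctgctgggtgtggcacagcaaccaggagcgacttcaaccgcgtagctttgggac
Col1a2 held 1 CCAAT and 2 GGGCGG matches, Col3a1 held 1 TATAAA match and Col15a1 held 0 of the 3 motifs, and no matches overlapped. Windows were present for 21 of the 33 members, with 24 windows, of which 3 held TATAAA, 9 held CCAAT and 14 held GGGCGG. Of all 32536 windows of the same length, 12.3%, 33.8% and 33% held them. These letters were found by search and say nothing of which factors bind.

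Col1a2, the second chain of type I collagen, was the most abundant member, measured at 2162, 2583, 2179, 2277 and 2181 CPM in DUAL 1 to 5, and at 2445, 2089, 2495 and 2395 CPM in control 1 to 4. Col1a1, its first chain, was measured at 1882, 2217, 1859, 2017 and 1883 CPM in DUAL 1 to 5, and at 2125, 1924, 2174 and 2076 CPM in control 1 to 4. The groups overlapped in both, and DUAL 2 was the highest library in both. The means of Col1a1 were 1972 ± 151 CPM (SD, n = 5) and 2075 ± 108 CPM (SD, n = 4), a difference of -0.08 (95% interval -0.26 to 0.11, adjusted p = 0.812, limma-trend). For Col1a2 the difference was -0.05 (95% interval -0.25 to 0.15), and it turned positive when columns were rescaled to the same total (0.0057) and under quantile normalization (0.0493). Scaling on hepatocyte markers turned both chains, Col1a1 to 0.16 (SE 0.18) and Col1a2 to 0.18 (SE 0.18). With the authors' scaling the upper bounds of both intervals were below 0.25, which was not so with scaling on hepatocyte markers.

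Col3a1, the chain of type III collagen, had means of 325 ± 17.4 CPM (SD, n = 5) in DUAL and 308 ± 36.4 CPM (SD, n = 4) in control livers, a difference of 0.08 (95% interval -0.10 to 0.27). Col5a1 and Col5a2, chains of type V collagen which starts fibrils, differed by -0.05 and 0.0029, at 380 ± 19.5 against 394 ± 24.8 CPM and 752 ± 50.7 against 753 ± 91.1 CPM. Of the 5 fibrillar collagens 0 passed the test with limma-trend, edgeR or DESeq2, and 0 had an unadjusted p under 0.05. With the authors' scaling the intervals of all 5 lay within 0.5 of 0. Scaling on hepatocyte markers moved the difference of Col3a1 to 0.31 (SE 0.17). Col3a1 and Col5a2 are adjacent coding genes in RefSeq.

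**Figure D3:**
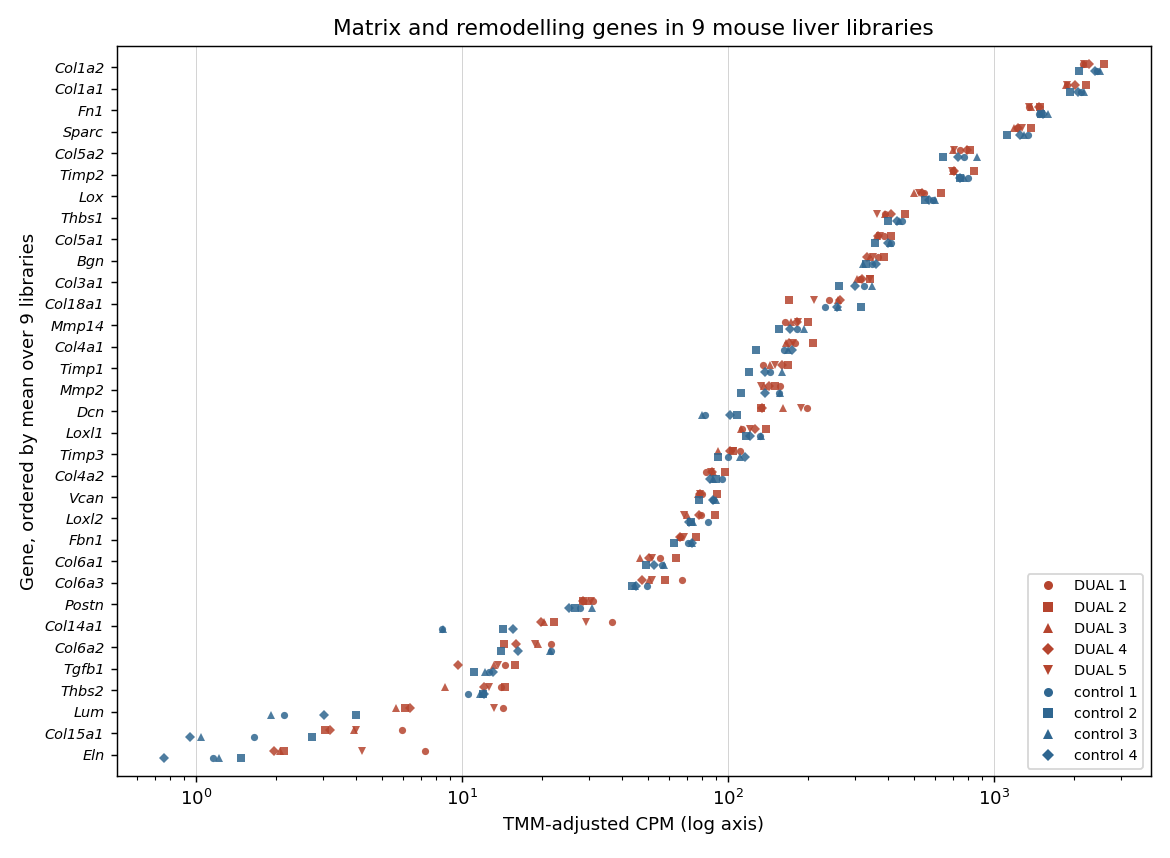
Level in CPM (log axis) of all 33 members in each of the 5 DUAL and 4 control libraries, ordered by mean level. Levels span from Eln (0.758 to 7.28 CPM) to Col1a2 (2089 to 2583 CPM), and for 28 members the DUAL and control points overlap.

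Among the glycoproteins, Fn1, the gene of fibronectin, averaged 1413 ± 65.6 CPM (SD, n = 5) in DUAL and 1525 ± 56.3 CPM (SD, n = 4) in control livers. Its libraries overlapped and the difference of -0.11 (95% interval -0.27 to 0.05) did not pass the test (adjusted p = 0.636, limma-trend). It turned to 0.12 with scaling on hepatocyte markers. Sparc, a collagen-binding calcium protein, averaged 1259 ± 70.4 against 1253 ± 93.4 CPM. Postn, the gene of periostin, stood at 28.4 to 31.0 CPM in DUAL and 25.2 to 30.8 CPM in control libraries, a spread no larger than counting error (6.92% against 8.12%). Thbs1 and Thbs2, the thrombospondins, of which the first activates latent TGF-beta, differed by -0.10 and 0.07. With the authors' scaling the intervals of all 5 glycoproteins lay within 0.5 of 0. Scaling on hepatocyte markers moved the difference of Postn to 0.33 (SE 0.18).

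The lysyl oxidases Lox, Loxl1 and Loxl2 start the cross-links of collagen and elastin. Lox had means of 547 ± 49.9 CPM (SD, n = 5) in DUAL and 579 ± 22.4 CPM (SD, n = 4) in control livers, a difference of -0.09 (95% interval -0.25 to 0.08) that turned to 0.15 with scaling on hepatocyte markers. Loxl1 and Loxl2 differed by -0.04 and 0.02. Of the 3 genes 0 passed the test with limma-trend, edgeR or DESeq2, and 0 had an unadjusted p under 0.05.

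Mmp2 codes for a gelatinase and Mmp14 for the membrane metalloproteinase that activates it. Mmp2 had means of 144 ± 9.52 CPM (SD, n = 5) in DUAL and 140 ± 20.6 CPM (SD, n = 4) in control livers, a difference of 0.05 (95% interval -0.17 to 0.26). Mmp14 averaged 180 ± 13.1 against 175 ± 16.1 CPM. Both differences turned negative without control 2, which had the lowest value of both genes.

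Timp1, the inhibitor often read as a transcript of fibrosis, was measured at 135, 168, 144, 160 and 151 CPM in DUAL 1 to 5. Control 1 to 4 gave 144, 120, 160 and 138 CPM. The groups overlapped, and the difference of 0.12 (95% interval -0.08 to 0.32) did not pass the test (adjusted p = 0.71, limma-trend). Timp2, which also takes part in the activation of Mmp2, averaged 730 ± 61.0 against 765 ± 26.3 CPM, and Timp3, which binds to the matrix itself, 103 ± 7.24 against 105 ± 10.99 CPM. The ratio of Timp1 to Mmp2 was 0.866 to 1.13 in DUAL and 0.928 to 1.06 in control libraries. In RefSeq the span of Timp1 overlaps that of Syn1, Timp3 that of Syn3 and Timp2 that of Cep295nl. These are whole gene spans, introns included, and whether exons or reads are shared was not tested.

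Tgfb1, the ligand gene, had means of 13.4 ± 2.31 CPM (SD, n = 5) in DUAL and 12.3 ± 0.841 CPM (SD, n = 4) in control livers. The difference of 0.10 (95% interval -0.20 to 0.41) did not pass the test (adjusted p = 0.85, limma-trend), with 53 to 104 reads behind a value.

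Summed over the 33 members, the matrix transcripts made up 11948, 13409, 11662, 12255 and 11845 CPM in DUAL 1 to 5, and 12801, 11555, 13099 and 12509 CPM in control 1 to 4. The groups overlapped in both directions, at 12224 ± 696 CPM (SD, n = 5) and 12491 ± 669 CPM (SD, n = 4). The 4 most abundant members, Col1a2, Col1a1, Fn1 and Sparc, made up 57.1% of the sum, and the 5 members with separated groups 1.32%. Without Col1a2 it was 9947 ± 523 against 10135 ± 489 CPM.

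Over all 9 libraries most members were close to constant. The coefficient of variation (CV, the SD over the mean) was below 10% for 20 of 33 members and for 19.9% of all tested genes. Abundant genes vary less, and at a mean of 50 CPM or more it was below 10% for 19 of 25 members and for 55.4% of 3230 tested genes. The CV of Col1a1 was 6.78%, of Fn1 5.65% and of Col4a2 4.99%, where counting error alone would give 0.964%, 1.13% and 4.595%. Dcn had a CV of 32.9% and Lum of 72.0%. For the 28 members with overlapping groups, the highest library was 1.15 to 1.86 times the lowest. With the authors' scaling the 95% interval lay within 0.5 of 0 for 27 of 33 members and for 52.9% of all tested genes, and within 0.25 for 12 of 33 members and 11% of all. These shares were not matched for level: 25 of 33 members averaged 50 CPM or more, against 3230 of 14759 tested genes.

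**Figure D4:**
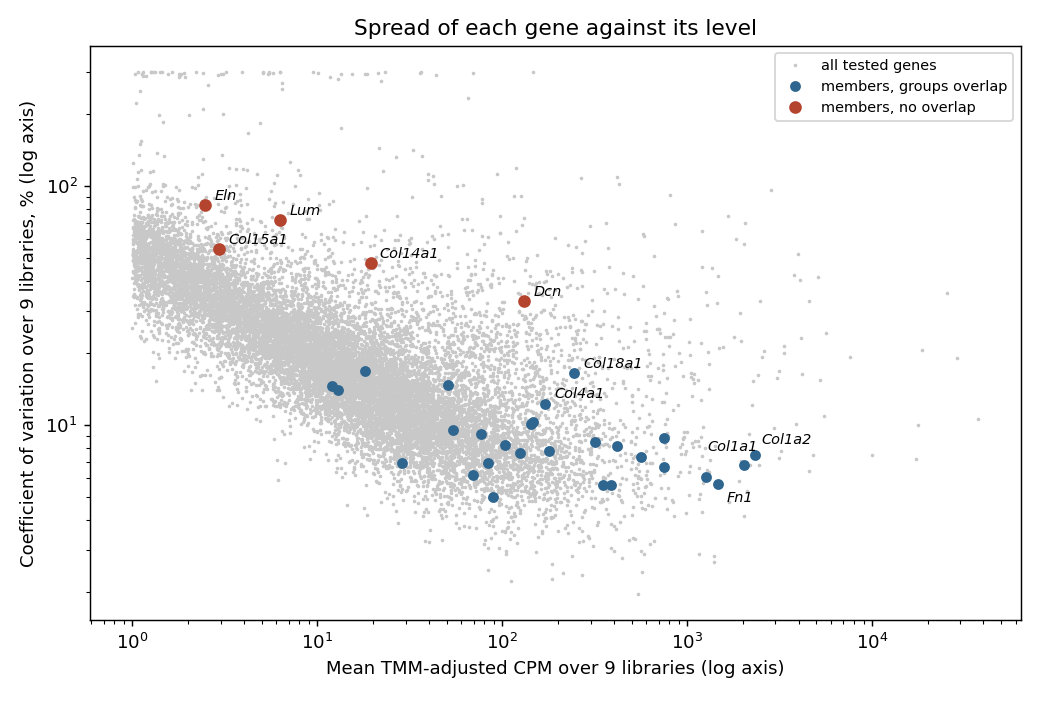
Coefficient of variation over 9 libraries (percent, log axis) against mean level (CPM, log axis) for all tested genes (grey) and the 33 members (blue where the groups overlapped, red where they did not). The 28 blue points lie between 4.99% and 16.9%, while Dcn at 32.9% is the lowest red point.

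The small deviations of the abundant members were shared. DUAL 2 was the highest library for 19 of 33 members and control 2 the lowest for 12. For how many of all tested genes this holds was not counted. DUAL 2 also had the lowest sum of hepatocyte markers (57640 CPM) and control 2 the highest (101800 CPM). Whether this moved the members was not tested. Within a library the ratio of Col1a1 to Col1a2 was nearly fixed, 0.853 to 0.886 in DUAL and 0.867 to 0.921 in control libraries (CV 2.3%). Some genes outside the 33 also kept close to Col1a1: the ratio of Inhba to Col1a1 had a CV of 2.03%, of Vim, an intermediate filament of mesenchymal cells, 2.65%, of Acta2, the actin of myofibroblasts, 3.17%, of Hmga2 4.12% and of Xist 6.66%. The ratio of Alb to Col1a1 had a CV of 36.4%, of the stellate marker Reln 25.9% and of Pdgfrb 21.3%. The ratio of Dcn to Col1a1 was 0.06 to 0.105 in DUAL and 0.0366 to 0.0563 in control libraries (CV 38.1%), and those of Col14a1 and Lum had CVs of 51.8% and 76.5%. The ratios share their denominator and are given as a description. Col1a1 itself had a CV of 6.78%, so its ratio to Xist was hardly steadier than Col1a1. Reln and Pdgfrb had low levels, at most 0.0113 and 0.0073 of Col1a1, where counting error is larger. Ratios among other abundant genes were not compared.

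**Figure D5:**
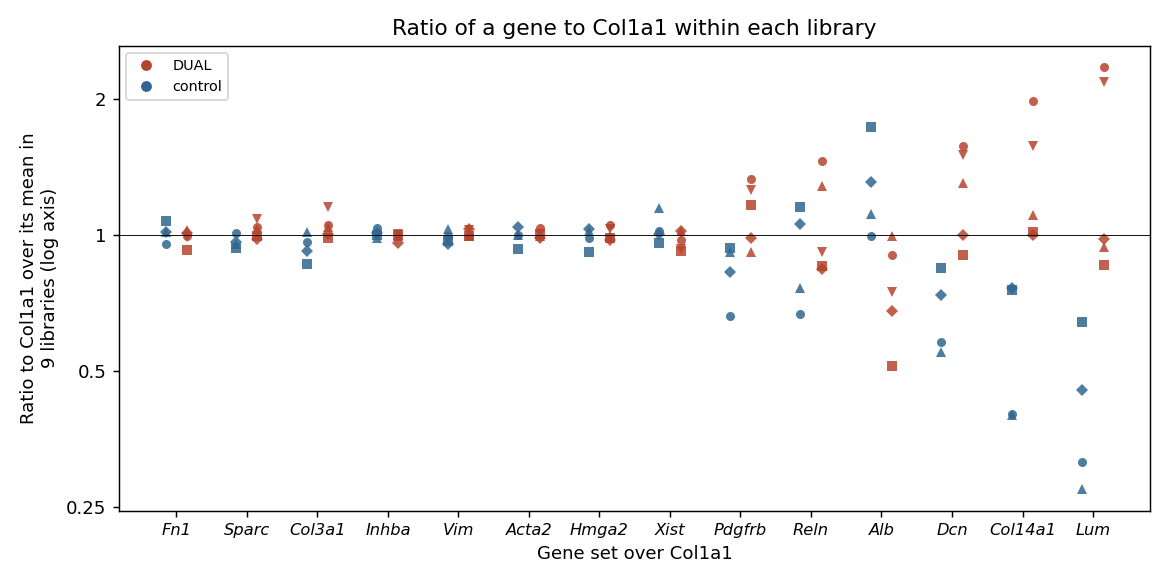
Ratio of 14 genes to Col1a1 within each library, divided by its mean over the 9 libraries (log axis), for DUAL (n = 5) and control (n = 4). Fn1, Sparc, Inhba, Vim, Acta2, Hmga2 and Xist stay near 1 in every library, while Alb, Dcn, Col14a1 and Lum spread widely.

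Lists of other matrix genes gave few calls as well. Over all tested genes 1.61% rose and 0.678% fell by limma-trend, and 2.51% rose and 1.19% fell by DESeq2. At an unadjusted p under 0.05 (limma-trend) 7.41% were higher and 4.77% lower. Of 14 tested other collagens 0 passed the test in limma-trend or edgeR, 3 had an unadjusted p under 0.05, all lower, and Col27a1 fell in DESeq2. The most abundant of them, Col8a1, had means of 131 ± 10.4 CPM (SD, n = 5) in DUAL and 133 ± 8.58 CPM (SD, n = 4) in control livers. Of 23 genes of collagen folding and processing, 1 rose and 0 fell by limma-trend and edgeR, 2 were higher and 1 lower at an unadjusted p under 0.05, and in DESeq2 Plod1 rose as well. The gene called by all 3 tools was Colgalt1, an enzyme that adds galactose to collagen, at 92.2 ± 6.00 against 71.6 ± 6.03 CPM (difference 0.36, SE 0.08, adjusted p = 0.0306, limma-trend). Of 38 basement membrane and other glycoproteins and of 28 TGF-beta signalling genes 0 passed the test with limma-trend, edgeR or DESeq2. At an unadjusted p under 0.05 (limma-trend) there were 5 of 38 and 2 of 28, all higher, beside the 7.41% of all tested genes. The most abundant of the lists, Vtn and Inhba, averaged 812 ± 160 against 927 ± 133 CPM and 718 ± 53.9 against 766 ± 43.6 CPM. Vtn stands on the list of hepatocyte markers too, and Inhba on that of foetal or cultured mesenchymal genes. Ecm1, Fbln2 and Spp1 stand both on the glycoprotein list and on a list of cell type markers.

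Of 19 other metalloproteinases and inhibitors, 1 rose and 0 fell with each of the 3 tools, and 2 were higher and 1 lower at an unadjusted p under 0.05. Shares of all tested genes were 1.61% higher and 0.678% lower by limma-trend, and 7.41% and 4.77% at an unadjusted p under 0.05. The gene that rose was Mmp12, the elastase of macrophages, measured at 13.2, 10.4, 15.02, 12.7 and 22.8 CPM in DUAL 1 to 5, and at 0.989, 1.47, 1.39 and 1.71 CPM in control 1 to 4. The groups were far apart, with a difference of 2.69 (SE 0.21, adjusted p = 3.0e-05, limma-trend), and Mmp12 stands on the list of macrophage markers too. Of 17 matrix receptors 1 rose, Itga9, an integrin subunit, at 11.4 ± 1.20 against 4.51 ± 0.717 CPM (difference 1.17, SE 0.15, adjusted p = 7.0e-04, limma-trend). In the same list 1 fell, the syndecan gene Sdc2, at 133 ± 12.1 against 173 ± 17.8 CPM (difference -0.38, SE 0.09, adjusted p = 0.0424, limma-trend). Among myofibroblast and smooth muscle markers 0 of 8 passed with any of the 3 tools (1 at an unadjusted p under 0.05, lower), with Acta2 at 966 ± 71.2 against 1005 ± 88.4 CPM.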

How the data were processed

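Per the labels' protocols, liver RNA of 9 mice was isolated with Trizol, and the Collibri kit for 3′ mRNA was used for sequencing libraries. Groups came from sample titles and each column was tied to a sample by its library name. Each library was taken as 1 mouse, and the labels give no batch. Per the submitters' processing notes, the authors used Trim Galore 0.6.0, cutadapt 1.18, STAR, build GRCm39, HTSeq 0.11.0, and edgeR 3.28.1 in R 3.6.3. The version of STAR and the strand and multimapping settings are not given in the sources used here. The deposited values are a signal, TMM-adjusted CPM by the authors.

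All positive values (100%, relative tolerance 1e-06) were whole multiples of 1 read, so read counts were recovered for depth and for the alternatives in edgeR 4.0.16 and DESeq2 1.42.0. The main test was limma-trend (limma 3.58.1, R 4.3.3) on log2(CPM + 1), two-sided, for the 14759 genes averaging 1 CPM or more, with Benjamini-Hochberg adjustment at 0.05. It called 338 genes, 238 higher and 100 lower; 1798 had an unadjusted p under 0.05. A level of 3 reads, 0.455 to 0.809 CPM by library, is what 0 reads allow, for counting error only. The smallest chi-square per degree of freedom between 2 libraries was 6.34. The script was tested on simulated data.

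The members and lists were chosen with earlier results of these data known, and 3 lists (proliferation, foetal or cultured mesenchymal cells, sex-linked genes) were added after the values were seen. Full statistics were given for called members and for Col1a1, Col1a2, Col3a1, Col4a1, Col6a1, Fn1, Dcn, Lum, Timp1, Mmp2 and Tgfb1; for others, values were given by role. Of the 14 lists, called genes or else the most abundant gene were named, at most 6 with the smallest p. Genes called by DESeq2 alone and Lrat were chosen after their values were seen. Cholangiocyte markers (0 of 4, 1 higher at an unadjusted p under 0.05, with Spp1 averaging 124 ± 8.42 against 118 ± 4.15 CPM) and proliferation genes (0 of 10, 2 higher) gave no calls with limma-trend, edgeR or DESeq2. Of all tested genes 7.41% were higher at an unadjusted p under 0.05 (limma-trend). Alternatives were a pseudocount of 0.25 or 5, leaving out the filter or raising it to 5 CPM, one total, median-of-ratios, quantile and hepatocyte marker scaling, the replicate number as a block, edgeR, DESeq2 and leaving out each library. Promoter windows came from RefSeq on GRCm38.p6, which also gave neighbouring and overlapping genes.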

Additional observations from a re-analysis of the deposited data

Results flagged for a closer look

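In 5 of the 66 groups of member values, 1 library stood apart from the rest of its group by Dixon's criterion, which chance meets in about 1 of 20 groups. In DUAL 2, Col1a2 stood at 2580 CPM against 2160 to 2280 CPM in the other DUAL libraries. In the same library Vcan stood at 90.9 CPM against 77.3 to 79.8 CPM, Fbn1 at 75.6 CPM against 65.8 to 68.5 CPM and Timp2 at 838 CPM against 695 to 709 CPM. Vcan stood at 78.2 CPM in control 2, below the 87.9 to 89.8 CPM of the other control libraries.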

How the results depend on the processing

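Dcn was called higher under every alternative except the replicate block, where its difference was 0.74 against 0.79 and the call was lost. The numbers of genes and of matrix members called were 338 and 3, against 698 and 5 with hepatocyte marker scaling, 545 and 5 with DESeq2, 469 and 4 with one total, and 112 and 0 with the replicate block. Leaving out 1 library gave 201 (without DUAL 5) to 387 genes and 1 (without DUAL 5, control 1 or control 3, with Dcn alone left) to 4 members (without control 2). Hepatocyte marker scaling moved the median of all genes to 0.21, that of the members to 0.24 and the summed level to a log2 difference of 0.20, and raised the share of calls that were higher from 70.4% to 87.7%. Under it Col1a1 was 0.16, Col1a2 0.18, Col6a1 0.21, Fn1 0.12 and Lox 0.15. With one total Col1a2 was 0.0057 and Col6a1 0.0367, and 77.6% of calls were higher; with quantile normalization Col1a2 was 0.0493. Leaving out 1 library gave -0.0807 to 0.0304 for Col6a1, -0.057 to 0.1007 for Mmp2 and -0.0117 to 0.0925 for Mmp14. The causes were not tested.

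Replicate numbers did not pair the samples: libraries of the same number correlated at -0.00753, -0.311, -0.213 and -0.0148, and 0 of 4 correlated best with their own number. Under the block the log2 difference was 0.74 for Dcn (adjusted p = 0.117), 1.21 for Lum (0.149) and 1.02 for Col14a1 (0.164), and DUAL 5, which has no partner, added nothing. Depth limits Eln, Col15a1 and Lum, which rest on few reads.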
